A study of Rattus norvegicus with 18 samples.

Results

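The colon of rats late after trinitrobenzene sulfonic acid (TNBS) was set against the colon early after it, by gene expression across the whole array. The TNBS day 14 group was 3 arrays and the TNBS day 2 group was 3 arrays, so that 6 of the 18 arrays of the series carry the comparison. Every rat in both groups had received 1 enema of 10 mg TNBS in 50% ethanol at day 0, and the groups differ by the day of sampling. TNBS arrays of days 5 and 7 (3 each), from rats treated in the same way, entered the model to estimate the spread between arrays, and the 6 saline controls entered only an alternative fit that is named as such. Rats had been selected at each day on markers of inflammation (myeloperoxidase activity, loss of body weight and the weight to length ratio of the colon), so the groups do not stand for all treated rats. The labels used here give no strain, sex or age and name no group that received ethanol alone. RNA came from homogenised full-thickness colon, which reads epithelium, muscle, nerves, vessels and leukocytes together. Levels below are the deposited normalised log2 signals of Affymetrix Rat Genome 230 2.0 arrays, and a difference is the day 14 mean minus the day 2 mean on that scale.

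TNBS given in ethanol breaches the epithelial barrier, and TNBS binds to proteins of the host and makes them targets of the immune system. The early lesion is an acute one, in which epithelium is lost and neutrophils and monocytes enter the wall along gradients of chemokines. As the lesion heals, epithelium covers the ulcer again, macrophages take on clearing and repairing roles, and mast cells and type 2 immune genes often rise. Comparing a late day with an early day asks which genes of that sequence are at different levels once the acute phase has passed. No healthy colon enters the comparison, so it does not show whether day 14 is back to normal.

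The day 2 arrays were not alike. Replicate 1 of day 2 correlated with the day 14 arrays at 0.982 to 0.991 (Pearson's r over probe sets, a description), and with the other 2 day 2 arrays at only 0.965 to 0.976. Replicates 2 and 3 of day 2 correlated with each other at 0.976, and the day 14 arrays correlated among themselves at 0.987. Levels are therefore given for each array, and tests and counts with replicate 1 of day 2 and without it. Leaving it out is a choice made from its values, which lowers the spread within day 2, so adjusted p-values without it describe the remaining arrays. Defining markers of colon wall were high on each of the 6 arrays: Muc2, the goblet cell mucin, lay between 13.38 and 13.49 on day 14 and between 12.64 and 13.25 on day 2, and Myh11, the smooth muscle myosin, lay between 12.18 and 12.65 on day 14 and between 11.70 and 12.57 on day 2. The epithelial markers Vil1 and Cdx2 lay at 11.01 to 11.15 and at 9.43 to 9.74 on day 14. On day 2 replicates 1, 2 and 3, Vil1 lay at 10.94, 9.82 and 10.04, and Cdx2 at 9.34, 8.16 and 8.15. Des, of muscle, lay between 11.15 and 11.8 on day 14 and between 11.55 and 12.6 on day 2. RNA integrity was read from control probe sets as the 3 prime minus the 5 prime signal, which for Gapdh was 0.58 ± 0.11 on day 14 and 0.53 ± 0.18 on day 2 (SD, n = 3 each, exact two-sided permutation p = 0.8). For beta-actin it was 1.06 ± 0.14 on day 14 and 1.07 ± 0.26 on day 2 (SD, n = 3 each, exact permutation p = 1), and 0.1 is the smallest p that 3 against 3 arrays allow. Replicate 1 of day 2 had the highest value of the 6 arrays for both transcripts, at 0.71 for Gapdh and 1.35 for beta-actin. Without it the day 2 means were 0.44 for Gapdh and 0.93 for beta-actin, both below day 14. The part of these differences in the results was not tested. Nothing in the labels says more than that arrays of a group are separate samples, so p-values measure the spread between these samples.

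With all 3 day 2 arrays, 0 of 31042 probe sets (0%) passed limma's test at a Benjamini-Hochberg adjusted p under 0.05. The smallest adjusted p was 0.0624, for Pla2g5, and 1968 probe sets (6.34%) had an unadjusted p under 0.05. With replicate 1 of day 2 left out, 2 probe sets were called higher (0.00644%) and 9 lower (0.029%) on day 14, and 4689 (15.1%) had an unadjusted p under 0.05. These 11 probe sets stand for 10 genes: Cxcl2, S100a8, S100a9, Il1r2, Hmox1, Tfec, Clec10a and Pla2g5 fell, and Ppp1r13b and Ace rose. The number of calls depends on the arrays in the fit. When the 5 remaining day 14 and day 2 arrays were fitted alone, without days 5 and 7, 402 probe sets were called higher and 202 lower, and the 11 above were among them. The median SD between arrays of a day was 0.144 on day 14, 0.16 on day 7, 0.169 on day 5 and 0.183 on day 2 (n = 3 each). Between replicates 2 and 3 of day 2 it was 0.133, from 2 arrays only. An SD from 2 arrays tends to come out lower than one from 3, so this value does not show a tighter group. Without replicate 1, Cxcl2 had an adjusted p under 0.05 in 13 of 15 other settings (limma, between 1.42e-05, with controls in the fit, and 0.0863) and Tfec in 11 of 15, and the other called genes in 8 to 10. Counted among these settings is the threshold of 0.01, which reuses the adjusted p-values of the fit that made the calls and so adds no support. Adjusted p-values of the 5 arrays alone are named as such below. For the genes quoted so they ranged from 0.00443 (Csf3r) to 0.597 (Gfap) across the settings without replicate 1, controls in the fit included.

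Genes were also described by whether their arrays overlap. Among 14217 genes, 923 (6.49%) were higher and 816 (5.74%) lower on all 3 day 14 arrays than on all 3 day 2 arrays. Leaving out replicate 1 of day 2, these counts were 3054 (21.5%) higher and 2688 (18.9%) lower. The 5 arrays alone called 271 genes higher (1.91%) and 146 lower (1.03%). The median difference over all genes was 0.004 with all arrays and -0.012 without replicate 1. Shares of a gene list near these percentages say nothing particular about the list.

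Cxcl2 and Cxcl1, chemokines that draw neutrophils through the receptor Cxcr2, showed large differences, and Cxcl2 had the largest decrease among the called genes. They are neighbours on chromosome 14, with start sites 12.1 kb apart. Pla2g2a and Pla2g5, secreted phospholipases that release fatty acids from membranes and that stood out for a day 2 level shared by its 3 arrays, are neighbours on chromosome 5, with start sites 13.8 kb apart. Their promoters are shown because the genes of each pair differed in the same direction and because NF-kappaB is a known regulator of both chemokines. Each run holds 250 bases before and 50 bases after the start of the gene (RefSeq, GRCr8), 5′ to 3′ on the strand of the gene, with matches to a kappaB-like motif (GGG, any 2 bases, then TTTCC, on either strand) in capitals.
Cxcl2, chr14:17467206-17467505, minus strand: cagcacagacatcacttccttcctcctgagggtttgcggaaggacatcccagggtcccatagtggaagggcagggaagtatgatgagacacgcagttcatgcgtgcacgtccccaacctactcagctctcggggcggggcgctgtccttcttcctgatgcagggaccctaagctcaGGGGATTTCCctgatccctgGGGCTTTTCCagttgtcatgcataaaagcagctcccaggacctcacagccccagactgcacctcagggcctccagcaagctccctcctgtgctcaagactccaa
Cxcl1, chr14:17479272-17479571, minus strand: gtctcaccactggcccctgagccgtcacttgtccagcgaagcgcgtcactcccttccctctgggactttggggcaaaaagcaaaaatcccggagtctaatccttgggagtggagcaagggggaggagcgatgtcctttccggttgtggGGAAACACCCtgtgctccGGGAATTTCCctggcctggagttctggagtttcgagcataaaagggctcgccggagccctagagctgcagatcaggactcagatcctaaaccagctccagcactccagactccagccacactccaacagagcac
Pla2g2a, chr5:156359475-156359774, plus strand: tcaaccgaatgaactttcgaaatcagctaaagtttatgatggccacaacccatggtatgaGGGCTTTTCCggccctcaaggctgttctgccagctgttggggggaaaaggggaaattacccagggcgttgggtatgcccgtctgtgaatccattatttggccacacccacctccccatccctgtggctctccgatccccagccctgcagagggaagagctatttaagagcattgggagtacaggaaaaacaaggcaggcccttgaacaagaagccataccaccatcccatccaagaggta
Pla2g5, chr5:156345873-156346172, minus strand: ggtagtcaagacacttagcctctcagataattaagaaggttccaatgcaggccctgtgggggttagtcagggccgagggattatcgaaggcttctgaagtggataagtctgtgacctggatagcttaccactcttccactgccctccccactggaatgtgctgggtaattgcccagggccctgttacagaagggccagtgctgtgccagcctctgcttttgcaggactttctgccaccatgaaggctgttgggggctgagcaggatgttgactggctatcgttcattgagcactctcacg
The Cxcl2 window holds the motif 74 and 54 bases before the start, the Cxcl1 window 102 and 84 bases before it, and the Pla2g2a window 190 bases before it. These letters are not in the Pla2g5 window. Of 33469 promoters of the same length, 512 (1.53%) hold the motif. Of 13 other genes among those called or described below, 9 have a promoter in the table, and 1 of these 9 windows, that of Tfec, holds it. A match is a run of letters and not a measured binding site.

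Genes of neutrophils and of their recruitment were lower on day 14, most of all against replicates 2 and 3 of day 2. Cxcl2 had levels of 5.60, 4.50 and 3.72 on day 14, against 8.17, 11.19 and 10.78 on day 2 (replicates 1, 2 and 3 in each). No day 14 array reached a day 2 array, and replicate 1 lay about midway between the day 14 mean and the other day 2 arrays. Cxcl2 differed by -5.44 ± 0.74 with all arrays (SE, limma adjusted p = 0.119), and fell by 6.38 ± 0.56 (SE) when replicate 1 was left out (limma adjusted p = 0.0121). Levels such as 4.50 and 3.72 are near the low end of the scale, so no linear fold is given. Cxcl1 had levels of 6.17, 4.46 and 4.65 on day 14, against 7.38, 8.996 and 8.25 on day 2. It, too, separated the days on all 6 arrays, with a difference of -3.12 ± 0.62 (SE, limma adjusted p = 0.486) and of -3.53 ± 0.66 without replicate 1 (limma adjusted p = 0.107). Cxcl3, of the same family, differed by -1.30 and without replicate 1 by -1.45 (limma adjusted p = 0.267). Among 19 measured CXC chemokines and receptors, 6 were lower and 1 higher on day 14 with no overlap, and 7 were lower and 3 higher without replicate 1.

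S100a8 and S100a9 encode the subunits of calprotectin, the abundant cytosolic protein of neutrophils that is used as a stool marker of gut inflammation. S100a8 had levels of 5.77, 7.27 and 5.43 on day 14, against 7.89, 11.05 and 10.91 on day 2. S100a9 had levels of 7.96, 9.17 and 7.51 on day 14, against 9.88, 12.58 and 12.37 on day 2. For both genes the days did not overlap, and replicate 1 of day 2 lay nearer to day 14 than to the other day 2 arrays. S100a8 fell by 4.82 ± 0.61 (SE) without replicate 1 (limma adjusted p = 0.0447), with a difference of -3.79 ± 0.82 when it was kept (limma adjusted p = 0.603). S100a9 fell by 4.26 ± 0.46 (SE) without replicate 1 (limma adjusted p = 0.0248), with a difference of -3.40 ± 0.66 when it was kept (limma adjusted p = 0.468). In bulk tissue, fewer cells of a type and less RNA per cell cannot be told apart.

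Csf3r, the receptor for granulocyte colony-stimulating factor, had levels of 3.81, 3.51 and 3.72 on day 14, against 4.11, 6.68 and 6.23 on day 2. Mmp8, the collagenase of neutrophil granules, had levels of 3.75, 4.11 and 3.92 on day 14, against 4.25, 6.32 and 5.88 on day 2. Fcnb, a ficolin of neutrophils and monocytes, had levels of 4.26, 4.51 and 4.55 on day 14, against 4.14, 6.90 and 6.45 on day 2. In all 3 genes replicate 1 of day 2 was at or near the day 14 levels, and the signal there was close to the low end of the scale. The 5 arrays alone called each of them lower on day 14 (limma adjusted p = 0.0123, 0.0184 and 0.0165 in that order). Of 26 neutrophil markers listed, 11 were measured, and 4 of these were lower on day 14 without overlap of the 6 arrays, against 9 without replicate 1. The median difference of the 11 was -0.85 with all arrays and -1.28 without replicate 1. Mpo, the gene of the myeloperoxidase by whose activity rats were selected, has no probe set of a single symbol in the annotation used.

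**Figure D1:**
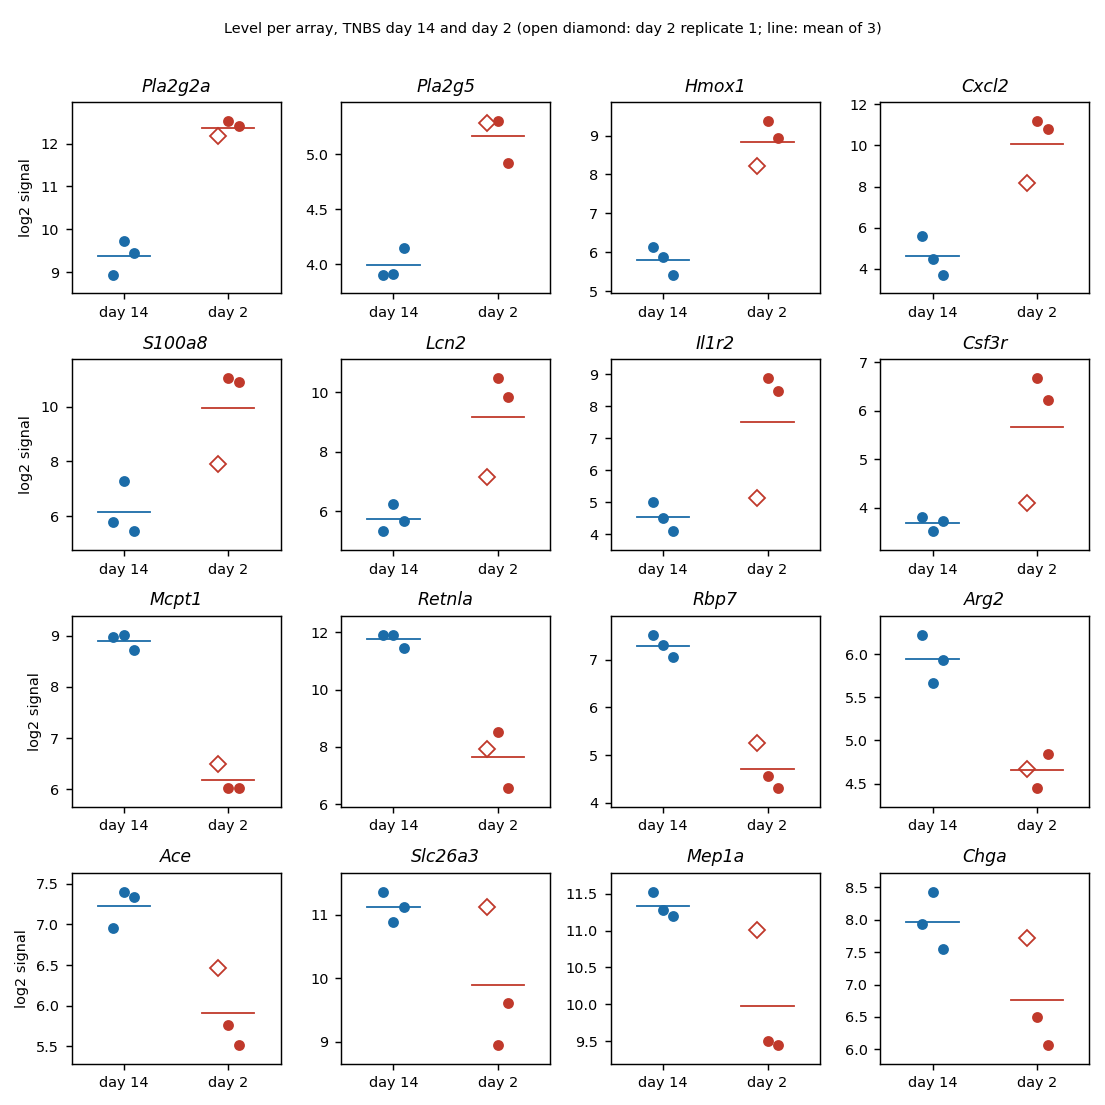
Deposited log2 signal of 16 genes on each day 14 array (blue, left) and each day 2 array (red, right), with replicate 1 of day 2 as an open diamond and the mean of 3 arrays as a line; each panel has its own axis. Replicate 1 lies with the other day 2 arrays for Pla2g2a, Pla2g5, Mcpt1, Retnla and Arg2, between the days for Cxcl2, S100a8 and Lcn2, and at the day 14 levels for Il1r2, Csf3r and Slc26a3.

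Another set of inflammation genes was lower on day 14 than on all 3 day 2 arrays, replicate 1 included. Pla2g2a, which also kills Gram-positive bacteria, had levels of 8.95, 9.72 and 9.46 on day 14, against 12.18, 12.53 and 12.40 on day 2. The day 2 arrays lay within a narrow band, replicate 1 among them, more than 2 log2 units above the highest day 14 array. Pla2g2a differed by -2.99 ± 0.38 (SE), 7.95-fold lower on day 14 (limma adjusted p = 0.119), and by -3.09 ± 0.44 without replicate 1 (limma adjusted p = 0.0526). It passed the threshold when the 6 arrays of the 2 days were fitted alone (limma adjusted p = 0.0399, and 0.0052, with controls in the fit, to 0.724 over the settings run). Pla2g5 had levels of 3.91, 3.91 and 4.15 on day 14, near the low end of the scale, against 5.28, 5.30 and 4.92 on day 2. Replicate 1 was again level with the other day 2 arrays, and Pla2g5 fell by 1.12 ± 0.15 (SE) when it was left out (limma adjusted p = 0.0497). With all arrays its difference was -1.18 ± 0.13 (limma adjusted p = 0.0624).

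Hmox1, the haem oxygenase that breaks down haem into iron, biliverdin and carbon monoxide, had levels of 6.13, 5.87 and 5.42 on day 14, against 8.21, 9.38 and 8.94 on day 2. All day 2 arrays were at least 2 log2 units above the day 14 arrays. Hmox1 fell by 3.35 ± 0.41 (SE) without replicate 1, 10.2-fold (limma adjusted p = 0.0447), and differed by -3.03 ± 0.40 with it (limma adjusted p = 0.119). Lbp, which hands bacterial lipopolysaccharide to its receptor, had levels of 6.05, 6.71 and 6.91 on day 14, against 8.54, 9.11 and 8.83 on day 2. Its arrays did not overlap, and it differed by -2.27 ± 0.42 (SE, limma adjusted p = 0.395), and by -2.41 ± 0.47 without replicate 1 (limma adjusted p = 0.119). Lcn2, the iron-scavenging protein lipocalin of neutrophils and inflamed epithelium, had levels of 5.32, 6.25 and 5.66 on day 14, against 7.14, 10.48 and 9.85 on day 2. Here replicate 1 lay below the other day 2 arrays and still above day 14, and the difference was -4.42 ± 0.67 without it (limma adjusted p = 0.0723). Slpi, an inhibitor of neutrophil elastase, had levels of 9.31, 10.37 and 9.28 on day 14, against 9.99, 12.08 and 12.19 on day 2, so that replicate 1 overlapped with day 14. Of 22 mucosal antimicrobial and acute phase genes, 4 were lower and 1 higher without overlap of the 6 arrays, and 11 were lower and 3 higher without replicate 1.

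Macrophage and monocyte genes were lower on day 14. Clec10a, a galactose-binding lectin of macrophages and dendritic cells, had levels of 5.19, 5.58 and 5.45 on day 14, against 6.31, 6.87 and 6.65 on day 2. The days did not overlap, and Clec10a fell by 1.35 ± 0.17 (SE) without replicate 1 (limma adjusted p = 0.0447). With all arrays it differed by -1.20 ± 0.17 (limma adjusted p = 0.127). Mrc1, the mannose receptor, had levels of 7.07, 7.06 and 6.24 on day 14, against 8.27, 9.49 and 8.61 on day 2. Cd163, the receptor through which macrophages take up haemoglobin, had levels of 5.05, 4.96 and 4.35 on day 14, against 6.42, 7.56 and 6.61 on day 2. Both were lower on day 14 than on any day 2 array, with differences of -2.26 and -2.30 without replicate 1 (limma adjusted p = 0.1 and 0.121). Lyve1, a hyaluronan receptor of lymphatic vessels and of some tissue macrophages, had levels of 6.85, 6.09 and 6.40 on day 14, against 7.89, 8.34 and 8.20 on day 2. It differed by -1.70 ± 0.24 (SE, limma adjusted p = 0.127), and its other probe set differed by -1.65.

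Tfec, a transcription factor of macrophages, behaved otherwise. It had levels of 3.79, 4.13 and 3.96 on day 14, near the low end of the scale, against 4.09, 5.61 and 6.03 on day 2. Replicate 1 lay within the day 14 range, and Tfec fell by 1.86 ± 0.17 (SE) when that array was left out (limma adjusted p = 0.0121), against a difference of -1.28 ± 0.38 when it was kept (limma adjusted p = 0.763). The other Tfec probe set differed by -0.22 with all arrays. Tyrobp, an adaptor of activating receptors on myeloid cells, had levels of 6.96, 7.20 and 6.41 on day 14, against 7.13, 9.05 and 8.69 on day 2, so that replicate 1 lay inside the day 14 range as well. Gpnmb, a glycoprotein of lipid-laden and repairing macrophages, had levels of 8.31, 7.70 and 6.64 on day 14, against 9.04, 10.64 and 10.48 on day 2, and differed by -3.02 ± 0.44 without replicate 1 (SE, limma adjusted p = 0.054). Of 23 macrophage and monocyte markers, 7 were lower and 0 higher on day 14 without overlap of the 6 arrays, and 17 were lower without replicate 1. Their median difference was -0.95, and -1.41 without replicate 1. The 5 arrays alone called 9 of the 23 lower and 0 higher.

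Il1r2, the decoy receptor that binds interleukin-1 and gives no signal, had levels of 5.00, 4.50 and 4.09 on day 14, against 5.13, 8.89 and 8.46 on day 2. Replicate 1 of day 2 was almost at the highest day 14 array, while the other 2 were more than 3 log2 units above it. Il1r2 fell by 4.14 ± 0.51 (SE) without replicate 1 (limma adjusted p = 0.0447), and differed by -2.96 ± 0.84 with it (limma adjusted p = 0.763). Il1b, the secreted pyrogenic cytokine, had levels of 7.18, 7.07 and 6.29 on day 14, against 7.74, 9.97 and 9.52 on day 2. The days did not overlap, and Il1b differed by -2.23 ± 0.53 (SE, limma adjusted p = 0.71), and by -2.90 ± 0.41 without replicate 1 (limma adjusted p = 0.0526). Il1a, released by dying cells, had levels of 4.84, 4.46 and 4.79 on day 14, against 6.16, 6.78 and 6.49 on day 2, with replicate 1 level with the others. Il1rn, the receptor antagonist, had levels of 4.14, 4.42 and 4.77 on day 14, against 4.77, 5.98 and 5.56 on day 2, and the highest day 14 array met replicate 1. Of 13 measured genes of the interleukin-1 family, 4 were lower and 1 higher on day 14 without overlap, and 10 were lower and 1 higher without replicate 1. Casp1, which cleaves pro-interleukin-1 beta, was the higher one, with levels of 9.09, 9.84 and 8.89 on day 14, against 8.84, 8.49 and 8.76 on day 2.

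Ccl2 and Ccl7, CC chemokines that draw monocytes, lay lower on day 14 as well, while other members of their list lay higher. Ccl2 had levels of 7.09, 6.87 and 6.91 on day 14, against 8.19, 10.35 and 10.15 on day 2. Its day 14 arrays lay within a narrow band below the 3 day 2 arrays, and Ccl2 differed by -3.29 ± 0.52 without replicate 1 (SE, limma adjusted p = 0.0745). In the 5 arrays alone it had an adjusted p of 0.00644 (limma). Ccl7, which shares receptors with Ccl2, had levels of 5.43, 5.04 and 5.87 on day 14, against 6.08, 8.73 and 8.46 on day 2. Ccr1, a receptor of several CC chemokines, had levels of 4.93, 4.78 and 4.58 on day 14, against 5.53, 7.63 and 7.28 on day 2, and replicate 1 was again the lowest day 2 array. Ccl28, a mucosal chemokine made by epithelium, had levels of 7.10, 6.30 and 7.17 on day 14, against 6.51, 5.94 and 5.93 on day 2, where replicate 1 overlapped with day 14. Of 21 genes in the list of CC chemokines and receptors, 3 were lower without overlap (Ccl2, Ccl7 and Ccr1) and 3 higher (Cx3cl1, Ccl20 and Ccl5). Without replicate 1, 9 were lower and 4 higher. Il6 was near the low end of the scale on day 14 at 3.79, 3.75 and 3.81, against 4.49, 6.17 and 4.86 on day 2. Of 28 cytokines and receptors of the IL-6, IL-10 and TNF families, 7 were lower and 0 higher without overlap, and 16 were lower without replicate 1.

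Among genes of matrix turnover, Timp1, the inhibitor of metalloproteinases, stood out. It had levels of 9.26, 8.53 and 7.44 on day 14, against 10.83, 12.40 and 11.84 on day 2. All day 2 arrays lay above all day 14 arrays, and Timp1 differed by -3.28 ± 0.52 (SE), 9.72-fold lower on day 14 (limma adjusted p = 0.248), and by -3.71 ± 0.53 without replicate 1 (limma adjusted p = 0.0526). Adamts1, a protease that cleaves versican and aggrecan, had levels of 5.22, 5.30 and 5.94 on day 14, against 6.67, 8.62 and 8.08 on day 2. Vcan, the versican core protein, had levels of 6.48, 5.62 and 4.74 on day 14, against 7.00, 9.67 and 8.38 on day 2. In both genes replicate 1 was the lowest day 2 array and lay above day 14. Mmp9, the gelatinase of neutrophils and macrophages, had levels of 3.89, 4.38 and 3.84 on day 14, against 4.42, 7.36 and 5.84 on day 2, where replicate 1 was barely above the highest day 14 array. Plat, the tissue plasminogen activator, had levels of 7.67, 7.74 and 8.06 on day 14, against 8.78, 8.54 and 9.05 on day 2, with replicate 1 in the middle of its group. Of 26 metalloproteinase, TIMP and plasminogen genes, 10 were lower and 0 higher without overlap of the 6 arrays, and 16 were lower and 1 higher without replicate 1.

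Collagens and other structural matrix genes had smaller differences than Timp1, and enzymes of collagen processing were lower on day 14 without replicate 1. Fn1, fibronectin, had levels of 10.17, 9.88 and 10.02 on day 14, against 10.60, 12.07 and 11.67 on day 2, a difference of -1.42 (limma adjusted p = 0.763). Of 19 collagens, 1 was lower and 0 higher on day 14 without overlap, and 5 were lower and 0 higher without replicate 1, with a median difference of -0.14 and -0.35. That 1 was Col8a1, a short-chain collagen of vessel walls, at 6.27, 5.86 and 6.51 on day 14, against 6.52, 7.83 and 7.28 on day 2, where the nearest arrays of the 2 days almost met. Serpinh1, the chaperone of collagen folding, lay at 10.02, 9.46 and 9.39 on day 14, against 9.91, 11.17 and 10.40 on day 2, and overlapped. Of 16 collagen processing and crosslinking enzymes, 2 were lower and 0 higher without overlap, and 10 were lower and 1 higher without replicate 1, with medians of -0.33 and -0.49. S100a4, of fibroblasts and leukocytes, had levels of 8.77, 8.29 and 8.26 on day 14, against 9.08, 10.65 and 10.19 on day 2. Fmod, fibromodulin of collagen fibrils, was higher on day 14 than on any day 2 array, with 6.68, 6.81 and 6.90 on day 14, against 6.27, 6.45 and 5.21 on day 2 (limma adjusted p = 0.763).

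Complement and coagulation genes were lower on day 14, while eicosanoid genes lay on both sides. F13a1, the A chain of the clot-stabilising factor XIII, had levels of 4.72, 4.70 and 4.67 on day 14, against 6.48, 7.21 and 6.35 on day 2, so that replicate 1 was level with its group. C3, the central complement component, had levels of 5.18, 6.77 and 6.03 on day 14, against 5.55, 8.73 and 8.27 on day 2, and here replicate 1 lay inside the day 14 range. C5ar1, the receptor of the anaphylatoxin C5a, had levels of 5.71, 5.66 and 5.44 on day 14, against 6.09, 7.94 and 7.44 on day 2. Of 21 complement and coagulation genes, 4 were lower and 0 higher without overlap, and 11 were lower and 1 higher without replicate 1, with medians of -0.49 and -0.75. Of 20 prostanoid and leukotriene genes, 5 were lower and 3 higher without overlap, and 9 were lower and 4 higher without replicate 1, with medians of -0.14 and -0.27. Ptgs2, the inducible cyclooxygenase, had levels of 6.88, 4.45 and 4.48 on day 14, against 6.49, 9.45 and 8.76 on day 2, so that the highest day 14 array passed replicate 1. Hpgd, which inactivates prostaglandins, was higher on day 14, with 11.36, 11.30 and 11.07 on day 14, against 11.01, 9.90 and 9.62 on day 2 (limma adjusted p = 0.763, and 0.193 without replicate 1). Slco2a1, the transporter that takes up prostaglandins for that step, had levels of 8.53, 8.45 and 8.27 on day 14, against 8.03, 7.52 and 7.42 on day 2. Both were called higher in the 5 arrays alone (limma adjusted p = 0.0223 for Hpgd and 0.033 for Slco2a1).

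**Figure D2:**
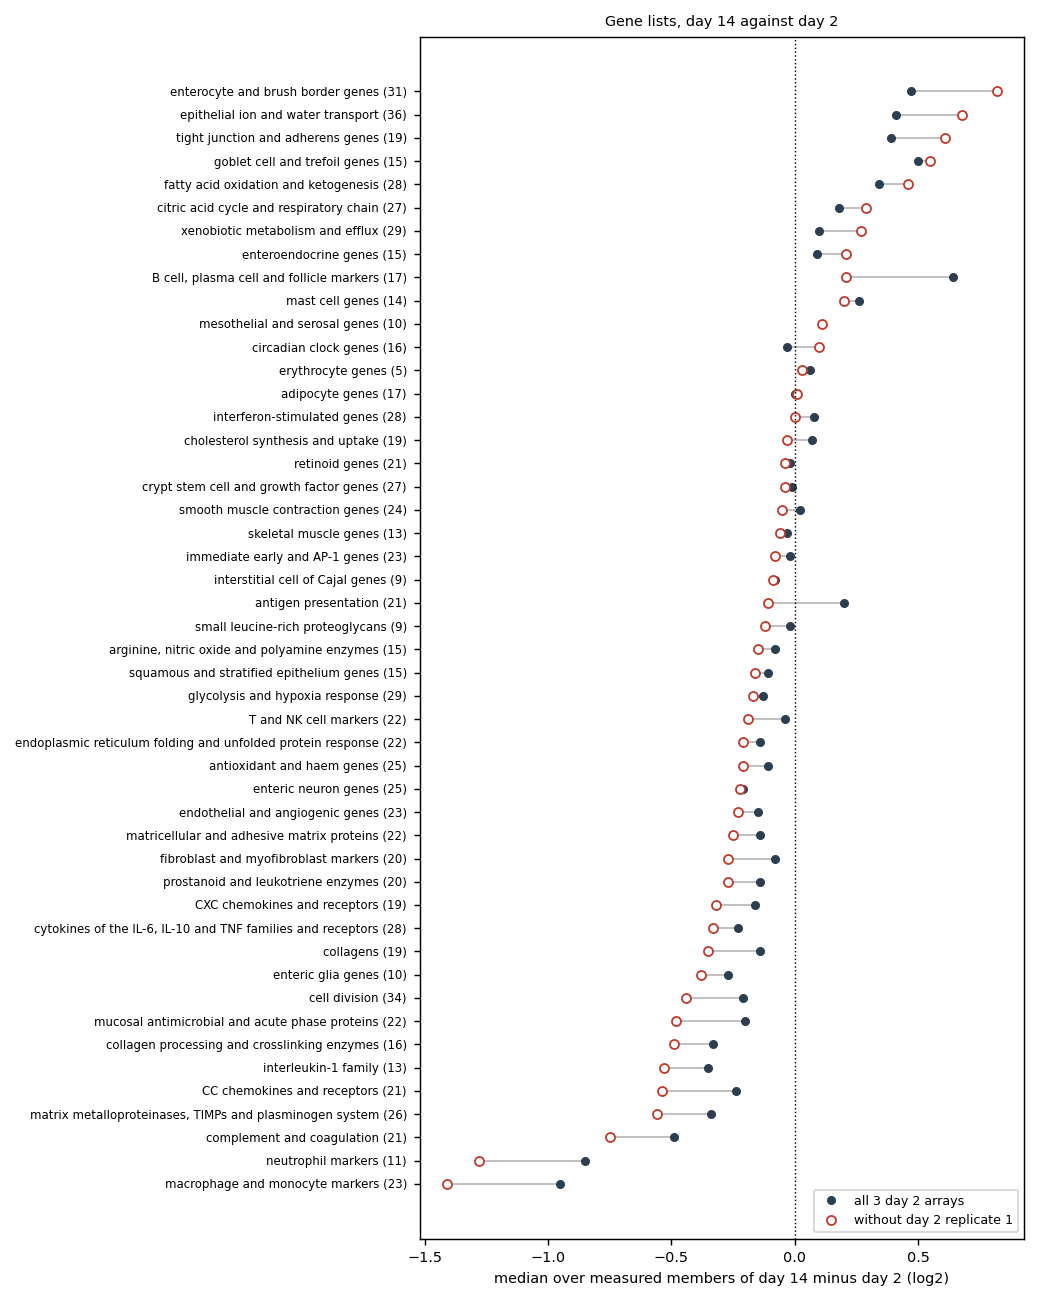
Median over measured members of the day 14 minus day 2 difference (log2) for 48 gene lists, with the number measured in brackets, for all 3 day 2 arrays (filled) and without replicate 1 (open). Macrophage (-0.95 and -1.41) and neutrophil (-0.85 and -1.28) lists lie lowest in both sets. Without replicate 1 the enterocyte list lies highest (0.82), and with all arrays the B cell list does (0.64).

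Many epithelial genes were higher on day 14 than on replicates 2 and 3 of day 2, while replicate 1 was mostly at the day 14 levels. Slc26a3, the chloride bicarbonate exchanger of the surface colonocyte, had levels of 11.36, 10.88 and 11.13 on day 14, against 11.12, 8.94 and 9.60 on day 2. Replicate 1 sat at the day 14 mean, so the difference was 1.24 with all arrays (limma adjusted p = 0.763) and 1.85 ± 0.48 without it (SE, limma adjusted p = 0.169). Mep1a, a metalloprotease of the brush border, had levels of 11.53, 11.28 and 11.20 on day 14, against 11.01, 9.50 and 9.44 on day 2. Slc9a2, a sodium proton exchanger, had levels of 8.76, 8.49 and 8.49 on day 14, against 8.28, 6.83 and 7.09 on day 2. In both genes the 6 arrays did not overlap, although replicate 1 lay closer to day 14 than to its own group. The 5 arrays alone gave limma adjusted p-values of 0.0292, 0.0149 and 0.0205 for Slc26a3, Mep1a and Slc9a2. Of 31 enterocyte and brush border genes, 9 were higher and 0 lower on day 14 without overlap, and 22 were higher and 1 lower without replicate 1, with medians of 0.47 and 0.82. The 5 arrays alone called 8 of the 31 higher and 1 lower. That lower one was Anpep, which differed by -1.31 without replicate 1.

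Within 36 genes of epithelial ion and water transport, 7 were higher and 3 lower on day 14 without overlap, and 20 were higher and 4 lower without replicate 1. The 5 arrays alone called 10 of the 36 higher and 0 lower. The 3 lower ones were Clca4, Best2 and Scnn1b, and for these replicate 1 lay with its own group. Clca4, a calcium-activated chloride channel regulator, had levels of 10.57, 10.29 and 9.54 on day 14, against 11.83, 11.35 and 12.13 on day 2. Best2, the bestrophin channel of colonic goblet cells, had levels of 6.37, 5.87 and 7.12 on day 14, against 7.97, 7.57 and 7.98 on day 2. Scnn1b, the beta subunit of the epithelial sodium channel, had levels of 5.42, 5.20 and 5.75 on day 14, against 7.12, 6.13 and 6.40 on day 2. None of the 3 passed the test (limma adjusted p = 0.641, 0.68 and 0.641 in that order, and 0.166 to 0.188 without replicate 1). Kcnk5, a potassium channel that sets the driving force for secretion, was higher on day 14 than on any day 2 array, with 7.33, 6.72 and 6.97 on day 14, against 6.48, 5.80 and 5.71 on day 2.

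Goblet and junction genes of the epithelium were higher on day 14 too. Muc2 had levels of 13.49, 13.38 and 13.46 on day 14, against 13.25, 12.64 and 12.66 on day 2, which do not overlap. Fcgbp, a mucus protein that binds Muc2, had levels of 12.24, 11.99 and 11.99 on day 14, against 11.69, 11.16 and 10.94 on day 2. Of 15 goblet cell and trefoil genes, 5 were higher and 1 lower on day 14 without overlap, the lower one being Best2. Without replicate 1 these counts were 10 higher and 1 lower. Tight and adherens junction genes separated the days mainly without replicate 1, with 2 of 19 higher and 0 lower on the 6 arrays and 16 higher and 0 lower on the 5. Cgn, the junction protein cingulin, had levels of 8.24, 8.04 and 8.28 on day 14, against 8.12, 7.11 and 7.11 on day 2, where replicate 1 lay inside the day 14 range. Chga, chromogranin A of enteroendocrine cells, had levels of 7.93, 8.43 and 7.55 on day 14, against 7.71, 6.49 and 6.06 on day 2, and replicate 1 again lay inside the day 14 range. The enteroendocrine list as a whole was near the share of all genes, with 1 of 15 higher and 1 lower without overlap, 3 higher and 2 lower without replicate 1, and medians of 0.09 and 0.21.

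Genes of fatty acid use, on which colonocytes depend, differed in the same direction as epithelial genes. Acadm, the medium-chain acyl-CoA dehydrogenase, had levels of 10.41, 10.04 and 9.96 on day 14, against 9.74, 9.04 and 8.86 on day 2. Pparg, the nuclear receptor of lipid metabolism that is abundant in colonic epithelium, had levels of 8.38, 8.65 and 8.04 on day 14, against 7.95, 6.28 and 6.76 on day 2. The arrays of the 2 days did not overlap in either gene, and replicate 1 was the highest day 2 array in both. Of 28 genes of fatty acid oxidation and ketogenesis, 7 were higher and 1 lower on day 14 without overlap, and 22 were higher and 1 lower without replicate 1, with medians of 0.34 and 0.46. Angptl4, the secreted inhibitor of lipoprotein lipase, was the lower one, with 4.63, 5.38 and 5.16 on day 14, against 6.26, 8.74 and 7.88 on day 2. Citric acid cycle and respiratory chain genes showed 4 of 27 higher and 0 lower on the 6 arrays, and 24 higher and 0 lower without replicate 1. Their median difference was small, at 0.18 and 0.29.

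Mast cell proteases were higher on day 14, and here replicate 1 of day 2 lay with its own group. Mcpt1, a chymase of mast cells, had levels of 8.98, 9.02 and 8.72 on day 14, against 6.49, 6.04 and 6.02 on day 2. Each group was tight and the gap between them was over 2 log2 units. Mcpt1 differed by 2.72 ± 0.66 (SE), 6.61-fold higher on day 14, without passing the test (limma adjusted p = 0.712, and 0.178 without replicate 1). Fitted with the 6 arrays of the 2 days alone it had an adjusted p of 0.0288 (limma), and its levels on the arrays of days 5 and 7 ranged from 5.58 to 8.44. Over the other settings its adjusted p reached 0.998. Cpa3, the mast cell carboxypeptidase, had levels of 6.09, 5.91 and 5.59 on day 14, against 4.71, 4.58 and 5.09 on day 2. Mcpt9 had levels of 5.03, 5.32 and 4.62 on day 14, against 4.21, 3.87 and 3.58 on day 2, and Mcpt10 had levels of 5.26, 5.93 and 4.82 on day 14, against 4.32, 3.59 and 4.13 on day 2. Of 14 mast cell genes, 7 were higher and 0 lower on day 14 without overlap of the 6 arrays, and 7 were higher and 1 lower without replicate 1. The median of the 14 was 0.26 with all arrays and 0.2 without replicate 1. Mast cell proteases are near relatives in sequence, so signal could be shared between their probe sets.

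Retnla, a secreted resistin-like protein that is induced by type 2 cytokines in macrophages and epithelium, showed the largest increase of the named genes. It had levels of 11.92, 11.92 and 11.44 on day 14, against 7.92, 8.51 and 6.54 on day 2. The day 14 arrays lay about 3 log2 units above the highest day 2 array, and replicate 1 was in the middle of its group. Retnla differed by 4.10 ± 1.62 (SE), 17.1-fold higher on day 14 (limma adjusted p = 0.763, and 0.329 without replicate 1). Arg2, the mitochondrial arginase, had levels of 6.23, 5.67 and 5.94 on day 14, against 4.67, 4.44 and 4.84 on day 2, with no overlap (limma adjusted p = 0.564). Rbp7, a retinol-binding protein of endothelium and fat, had levels of 7.52, 7.32 and 7.05 on day 14, against 5.26, 4.57 and 4.30 on day 2. Rbp2, the retinol-binding protein of absorptive enterocytes, had levels of 6.74, 5.75 and 5.60 on day 14, against 4.40, 4.41 and 4.53 on day 2. All day 14 arrays of both genes exceeded all day 2 arrays, with differences of 2.59 and 1.58 (limma adjusted p = 0.636 and 0.395). Of 21 retinoid genes, 2 were higher and 1 lower without overlap, and 7 were higher and 3 lower without replicate 1, with medians of -0.02 and -0.04.

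The 2 genes called higher without replicate 1 were Ace and Ppp1r13b. Ace, the angiotensin-converting enzyme of endothelium and of brush borders, had levels of 6.96, 7.40 and 7.33 on day 14, against 6.46, 5.76 and 5.51 on day 2. Replicate 1 lay midway, and Ace rose by 1.60 ± 0.19 (SE) when it was left out (limma adjusted p = 0.0396), against 1.32 ± 0.23 with it (limma adjusted p = 0.377). The other Ace probe set differed by 0.17 with all arrays. Ppp1r13b, a p53-binding protein that favours apoptosis, had levels of 6.83, 6.55 and 6.83 on day 14, against 6.52, 5.59 and 5.48 on day 2. Its replicate 1 almost reached day 14, and it rose by 1.20 ± 0.16 (SE) without that array (limma adjusted p = 0.0497). Amn, amnionless, the membrane anchor of the vitamin B12 receptor complex, had levels of 7.23, 6.76 and 6.64 on day 14, against 5.70, 4.86 and 4.80 on day 2, and missed the threshold without replicate 1 (limma adjusted p = 0.054).

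Lymphoid genes divided the arrays of each group. Ms4a1, the B cell antigen Cd20, had levels of 8.26, 9.21 and 6.41 on day 14, against 3.57, 3.88 and 9.34 on day 2. The highest level of the 6 arrays was on day 2 replicate 3, and the lowest were on the other 2 day 2 arrays. Cxcl13, the chemokine that gathers B cells into follicles, had levels of 9.91, 10.27 and 7.12 on day 14, against 5.18, 5.14 and 10.86 on day 2. Cd3g, a chain of the T cell receptor complex, had levels of 6.75, 7.53 and 6.24 on day 14, against 4.83, 5.01 and 8.79 on day 2. The mean level of the 17 measured B cell, plasma cell and follicle markers was 6.76, 7.47 and 5.58 on day 14, against 4.82, 4.96 and 7.60 on day 2, and 0 of the 17 separated the days. How much lymphoid tissue each piece of colon held was not tested. RT1-Bb, an MHC class II beta chain, did not follow these genes, with 8.58, 9.004 and 7.96 on day 14, against 8.03, 6.26 and 4.50 on day 2, while RT1-Db1 was high on day 2 replicate 3, with 9.40, 10.04 and 8.77 on day 14, against 7.55, 7.95 and 10.22 on day 2.

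**Figure D3:**
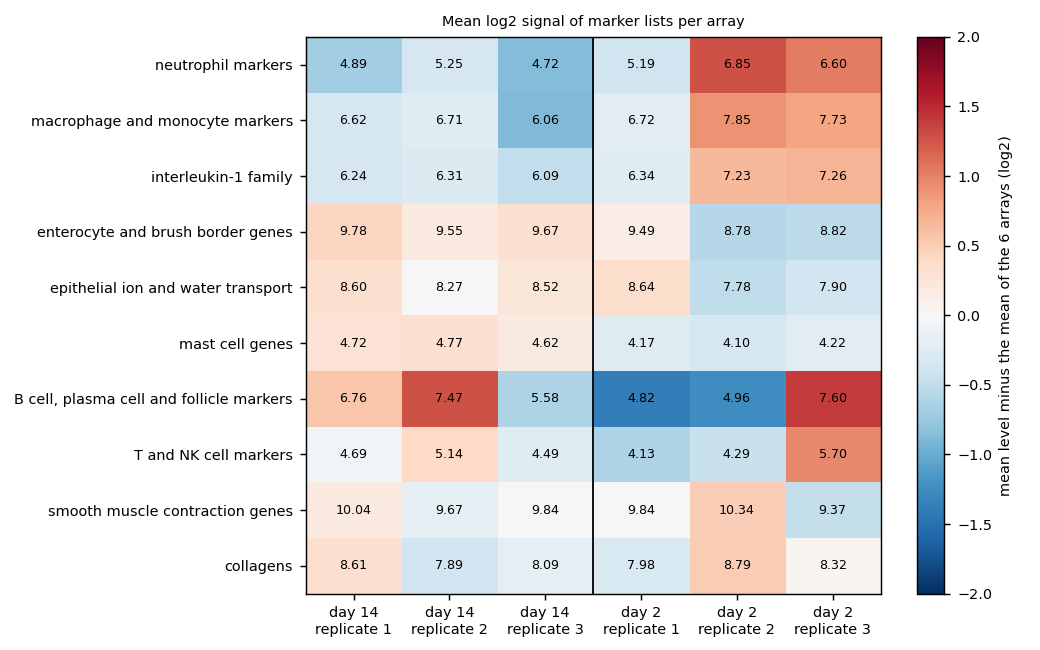
Mean deposited log2 signal of 10 gene lists (rows) on each of the 3 day 14 arrays (left) and the 3 day 2 arrays (right), written in each cell and coloured by its distance from the mean of the 6 arrays. Neutrophil and macrophage lists are high on day 2 replicates 2 and 3 and low on replicate 1, mast cell genes are higher on all day 14 arrays than on all day 2 arrays, and the B cell list is high on day 2 replicate 3.

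Smooth muscle genes differed little, and some nerve and glia genes were lower on day 14 when replicate 1 was left out. Of 24 smooth muscle contraction genes, 0 separated the days on the 6 arrays and 3 were lower without replicate 1, with medians of 0.02 and -0.05. Of 25 enteric neuron genes, 2 were lower and 1 higher without overlap, and 10 were lower and 1 higher without replicate 1, with medians of -0.21 and -0.22. Vip, the relaxing neuropeptide, lay at 9.16, 7.77 and 7.54 on day 14, against 8.64, 9.80 and 9.50 on day 2, which overlap. Of 10 enteric glia genes, 2 were lower and 1 higher without overlap, and 5 were lower and 2 higher without replicate 1, with medians of -0.27 and -0.38. Gfap, the filament protein of glia, had levels of 4.93, 5.02 and 5.22 on day 14, against 5.21, 5.89 and 6.24 on day 2, and was called lower in the 5 arrays alone (limma adjusted p = 0.044). Cell division genes lay slightly lower on day 14, with 1 of 34 lower and 0 higher on the 6 arrays, 13 lower without replicate 1, and medians of -0.21 and -0.44. Interferon-stimulated genes went both ways, with medians of 0.08 with all arrays and 0 without replicate 1. Of 28, 5 were higher and 7 lower without replicate 1, not far from the shares of all genes (21.5% and 18.9%). Without overlap of the 6 arrays, 3 were higher (Irf1, Oasl and Isg15) and 1 lower. The lower one was Ifitm3, an antiviral membrane protein, at 9.40, 9.47 and 9.24 on day 14, against 10.10, 11.36 and 10.95 on day 2. It differed by -1.43 ± 0.30 (SE, limma adjusted p = 0.564), and by -1.78 ± 0.25 without replicate 1 (limma adjusted p = 0.0526).

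The place of replicate 1 between the days was counted over the genes with a difference of 1 or more in size without it. There were 563 such genes, 325 higher and 238 lower on day 14. In 498 of them (88.5%) replicate 1 lay nearer to the day 14 mean than to the mean of the other day 2 arrays, and in 264 it lay within the range of the 3 day 14 arrays. In 65 genes it lay nearer to the other day 2 arrays, 31 of them higher and 34 lower on day 14. Retnla, Mcpt1, Rbp7, Rbp2 and Arg2 are among these higher ones, and Pla2g2a, Pla2g5, Hmox1, Timp1, Lbp, Cxcl1, Cxcl2, Mrc1, Cd163, Il1a and F13a1 are among the lower ones. The higher ones also include lymphoid genes such as Ms4a1 and Cxcl13, for which replicates 2 and 3 of day 2 lie far apart. For these genes the other day 2 arrays share no level that replicate 1 could carry. Apart from such genes, the array carried some of the day 2 differences and not others, and its label was taken as given. As the genes were chosen by the other arrays, these counts are a description.

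**Figure D4:**
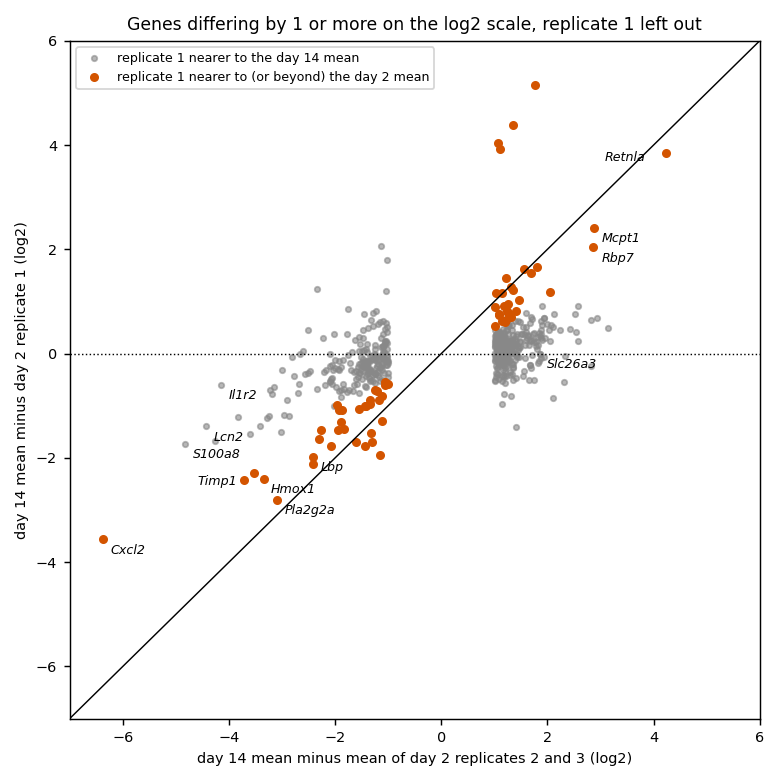
Day 14 mean minus day 2 replicate 1 (vertical, log2) against day 14 mean minus the mean of day 2 replicates 2 and 3 (horizontal, log2) for the 563 genes with a horizontal value of 1 or more in size. Points on the solid line have the same difference from replicate 1 as from the other day 2 arrays, points on the dotted line have replicate 1 at the day 14 mean, and 65 genes (orange) have replicate 1 nearer to the other day 2 arrays. Among the orange points high above the solid line are the lymphoid genes Ms4a1, Cr2 and Cxcl13.

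The days between differed from gene to gene. Cxcl2 averaged 10.0 on day 2, 11.3 on day 5, 11.9 on day 7 and 4.60 on day 14, so that its low level was seen on day 14 and on none of the earlier days. Hmox1 followed the same course, with means of 8.84, 9.41, 9.25 and 5.81 on days 2, 5, 7 and 14. Pla2g2a averaged 12.4 on day 2 and 9.38 on day 14, with levels of 12.28, 12.07 and 11.70 on day 5 and of 12.06, 10.28 and 10.64 on day 7. Pla2g5 was already low on day 7, with means of 5.17, 4.48, 3.80 and 3.99. Mcpt1 averaged 6.18, 6.57, 6.71 and 8.91, with 1 high array each on days 5 and 7, and Retnla averaged 7.66, 9.86, 9.38 and 11.8, with arrays of days 5 and 7 spread from 5.53 to 11.97. No test was made between these other days.

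**Figure D5:**
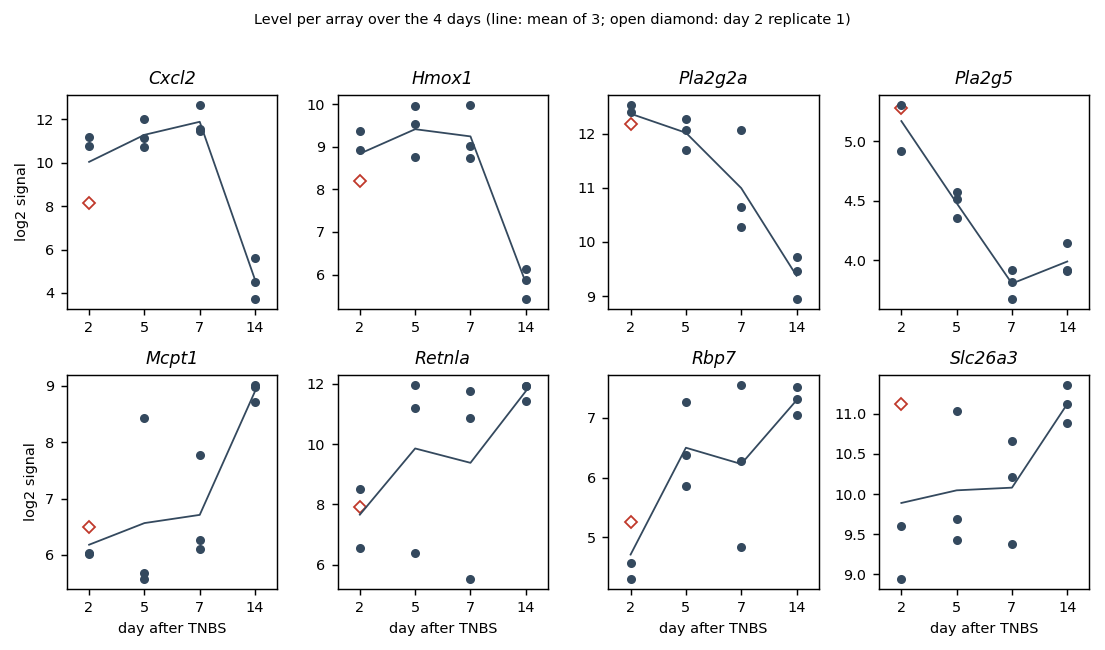
Deposited log2 signal of 8 genes on each array of TNBS days 2, 5, 7 and 14 (points, 3 per day), with the daily mean as a line and day 2 replicate 1 as an open diamond; each panel has its own axis. Cxcl2 and Hmox1 are low on day 14 alone, Pla2g5 is low from day 7 on, and Mcpt1, Retnla and Rbp7 have widely spread arrays on days 5 and 7.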

How the data were processed

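The authors' deposited table holds normalised log2 signals of 31099 probe sets. Per the labels, total RNA was extracted with Trizol and hybridised by Affymetrix protocols, and normalisation used the affyPLM package of Bioconductor. The sources used here state neither its version nor the background method nor the log base, and the values range like log2 signals. Tests covered 31042 probe sets, after removal of 57 array controls, and 20826 of them carry 1 symbol, 436 several and 9780 none. Where several single-symbol probe sets name a gene, that of highest mean on the 12 TNBS arrays was used (14217 genes, with symbols updated through RefSeq where the gene ID matched, for 20758 probe sets).

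limma 3.58.1 in R 4.3.3 fitted 1 coefficient per day to the 12 TNBS arrays, or to 11 without day 2 replicate 1, with two-sided moderated tests and Benjamini-Hochberg adjustment over all 31042 probe sets. A run on simulated data used independent noise and no array like day 2 replicate 1, so it does not cover that feature of these data. Precision is limited by 3 arrays per day. Genes were named by a rule: the largest called differences, the smallest p-values overall and in each of 48 lists, a panel of 60 genes, and all members of lists with 20 or fewer measured. The members and lists were chosen with earlier results of these data known. Alternatives were quantile normalisation, median centring, a filter on low signal, other arrays in the fit, array weights, a variance trend, a replicate block, 1 probe set per gene, a threshold of 0.01 and leaving out single arrays. Deviations of same-numbered arrays of the 2 days had correlations of 0.19, 0.07 and -0.18, and the labels name no pairs, so the numbers were not taken as pairs. So few correlations cannot show that pairing is absent.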

Additional observations from a re-analysis of the deposited data

How the results depend on the processing

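The number of calls depended on the arrays in the fit and on the estimate of spread. With all 3 day 2 arrays, 0 probe sets were higher and 0 lower. With only the day 14 and day 2 arrays fitted, 1 was higher and 1 lower, and with control arrays in the fit 1 was higher and 5 lower. A variance trend gave 4 lower, array weights gave 5 lower and 1 probe set per gene gave 1 lower. Leaving out single arrays gave 0 to 2 higher and 0 to 9 lower, the most without day 2 replicate 1. Without that replicate, 2 were higher and 9 lower. Quantile normalisation then gave 8 higher and 18 lower, median centring 5 higher, the filter on low signal 6 higher and 21 lower, the trend 6 higher and 24 lower, array weights 5 higher and 24 lower, and 1 probe set per gene 8 higher and 24 lower. The 5 arrays alone gave 402 higher and 202 lower, and adding controls 205 higher and 175 lower, with 207 probe sets in both sets of calls (34.3% and 54.5% of them). A threshold of 0.01 gave 0 and 0. Leaving out a further array gave 0 to 1 higher and 0 to 4 lower, and the 0 and 0 came without day 2 replicate 3. With a replicate block, all arrays gave 0 and 0, and without replicate 1 the count was 0 higher and 1 lower. Array numbers were not taken as pairs, although 7 of 12 arrays correlated best with an array of their own number. The labels do not say whether same-numbered arrays belong together. Of the 10 genes called without replicate 1, 9 lost the call under the block, 10 at the stricter threshold and 6 to 10 when a further array was left out. Among 83 of the genes named, no called difference changed sign in any setting run. Cd3g, Ms4a1, Cr2, Cxcl13, RT1-Db1 and Myh11, none of them called, changed sign when single arrays were left out. List members called numbered 0 with all arrays and 6 without day 2 replicate 1. On the quantile scale the medians of the 48 lists moved by at most 0.11, and those of the smooth muscle and skeletal muscle lists changed sign. Apart from the array sets named above, the cause of these shifts was not tested. With 3 arrays a day, a difference that misses the threshold is not shown to be absent.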
